A study of Drosophila melanogaster with 3 samples.

Results

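Of the 8687 reproducible Hr4-GFP binding summits on the 6 main chromosome arms of Drosophila melanogaster, 2140 (24.6%, 95% Wilson interval 23.7% to 25.6%) lay in distal introns of shorter genes. They were chosen by position alone: each summit is over 1 kb from every annotated transcript start site, in no annotated exon, and inside a protein-coding gene, and every protein-coding gene that covers it spans under 50 kb. The other reproducible summits comprised 1293 in distal introns of genes of 50 kb or more, 1783 at promoters (within 250 bp of a start site), 1943 farther out but within 1 kb of one, 1381 distal summits in no protein-coding gene, 115 in distal exons and 32 in distal introns covered by genes of both sizes. Hr4-GFP was located by ChIP-seq, which sequences the DNA that an antibody pulls down with its target, here with an antibody against green fluorescent protein (GFP), in whole prepupae at the white prepupa stage, males and females pooled. The animals came from a transgenic line that stably expresses Hr4 fused at its C-terminus to GFP, and the labels give their age as 48 days. All 3 biological replicates belonged to this 1 group, so no genotypes or treatments were compared, and in whole animals binding in fewer cells and weaker binding per cell cannot be told apart.

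Hr4 is an orphan nuclear receptor, a transcription factor of the family that includes the ecdysone receptor. Pulses of the steroid 20-hydroxyecdysone drive the moults and metamorphosis of the fly, and in the prepupa Hr4 is known as part of the cascade that represses early ecdysone-induced genes and prepares the induction of later ones. Nuclear receptors of its branch recognise the hexamer AGGTCA, alone with an extension on its 5′ side or as a repeat. Introns of Drosophila genes, in particular long ones near the 5′ end, hold many enhancers, the short stretches of DNA from which transcription factors regulate a promoter at a distance.

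The 8 strongest of these summits with printable sequence are shown first, because the base composition and motif results below rest on what lies directly at a summit. Each is the summit base with 50 bp to either side, plus strand, from the RefSeq Release 6 genome in dm6 coordinates, with capitals on any match to the homeodomain core TAATTA or the GATA site AGATAA.
CG11050, intron 4, chr2L:6612659-6612759: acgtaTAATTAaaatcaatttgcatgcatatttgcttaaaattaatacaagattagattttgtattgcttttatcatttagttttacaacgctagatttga
Trl, intron 2, chr3L:14759474-14759574: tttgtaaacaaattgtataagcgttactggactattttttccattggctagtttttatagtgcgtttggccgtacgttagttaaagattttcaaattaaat
CG32772, intron 1, chrX:4910333-4910433: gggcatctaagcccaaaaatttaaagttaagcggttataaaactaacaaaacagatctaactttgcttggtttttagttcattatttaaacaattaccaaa
CG3726, intron 1, chrX:5918863-5918963: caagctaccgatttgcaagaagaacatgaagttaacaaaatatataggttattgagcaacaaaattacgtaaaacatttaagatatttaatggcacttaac
CG9837, intron 1, chr3R:8811636-8811736: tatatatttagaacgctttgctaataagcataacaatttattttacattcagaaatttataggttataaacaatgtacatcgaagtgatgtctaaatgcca
neur, intron 2, chr3R:9031958-9032058: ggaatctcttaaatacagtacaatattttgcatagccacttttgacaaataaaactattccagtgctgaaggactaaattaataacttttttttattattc
upSET, intron 2, chr3L:14005026-14005126: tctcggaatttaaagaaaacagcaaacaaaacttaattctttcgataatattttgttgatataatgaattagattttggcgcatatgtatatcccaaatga
for, intron 1, chr2L:3655762-3655862: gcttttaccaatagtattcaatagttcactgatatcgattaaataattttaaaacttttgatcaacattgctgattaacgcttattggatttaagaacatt
The GC content of these windows was 22.8% at CG11050, 29.7% at Trl, 28.7% at CG32772 and at CG3726, 25.7% at CG9837 and at for, and 26.7% at neur and at upSET, against 39.8% over all distal intron sequence of genes under 50 kb. Only the CG11050 window held a TAATTA and none held an AGATAA.

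A wider view of the strongest summit shows the change in composition that most of these sites shared. These are 300 bp around the CG11050 summit, with the summit and 50 bp to either side of it in capitals.
CG11050, chr2L:6612560-6612859: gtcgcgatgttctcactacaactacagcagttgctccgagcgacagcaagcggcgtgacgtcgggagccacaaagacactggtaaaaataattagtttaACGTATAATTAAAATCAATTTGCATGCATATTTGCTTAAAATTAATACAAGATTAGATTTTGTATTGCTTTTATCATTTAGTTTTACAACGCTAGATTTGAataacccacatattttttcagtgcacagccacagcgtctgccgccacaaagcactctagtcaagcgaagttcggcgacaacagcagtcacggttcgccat
The middle stretch had 22.8% GC, the 99 bp to its left 49.5% and the 100 bp to its right 52%. At this site the intron is only 140 bp long, so the sequence on both sides is partly exon, which was the exception: 1914 of the 2140 summits (89.4%) lay over 400 bp from any exon of their host gene. The extended sequence TCAAGGTCA was present within 50 bp of only 1 of the 2140 summits, in CG34398, where it lies on the minus strand and is shown in capitals as TGACCTTGA.
CG34398, chr2L:8919780-8919880: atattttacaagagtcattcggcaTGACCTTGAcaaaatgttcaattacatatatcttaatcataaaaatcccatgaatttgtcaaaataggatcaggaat
That summit was of median strength among the 2140, with a signal value of 174.7 against a median of 175.1.

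The precision of these comparisons is set by the 3 replicates and by the number of summits, since read depth is unknown. Each replicate has a list of 30000 candidate peaks, and a reproducible summit counted as found where a summit of that list lay within 250 bp. Replicate 1 differed from the others on the X chromosome. Among its 8693 highest entries, 51.9 per Mb fell on X, against 67.5 in replicate 2 and 72.7 in replicate 3, while on 2L, 2R, 3L and 3R the 3 replicates had 68.2, 64.7 and 63.7 per Mb. Some results are therefore also given without replicate 1 or without X. Intervals on counts and densities cover counting error only, and the summits themselves are not replicates.

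Reproducible summits were denser in distal introns of shorter genes than in those of longer genes or in distal sequence outside protein-coding genes. The 2140 summits fell in 20.9 Mb of sequence that meets the positional rule, which is 15.6% of the arms, and gave 102.3 summits per Mb (exact Poisson 95% interval 98.0 to 106.8). Distal introns of genes of 50 kb or more, with the same amount of sequence (20.9 Mb), held 61.96 per Mb (58.6 to 65.4), distal sequence in no protein-coding gene held 47.5 per Mb (45.02 to 50.1), and the arms as a whole 64.9 per Mb. When the rule was applied to the 8693 highest entries of each replicate's own list, the density was 100.3, 99.9 and 102.4 per Mb in replicates 1, 2 and 3 for genes under 50 kb, against 63.6, 56.5 and 57.9 per Mb for longer genes. The difference averaged 41.5 ± 4.24 per Mb (SD, n = 3) and had the same sign in 3 of 3 replicates (exact two-sided sign-flip permutation test, p = 0.25, the smallest value that 3 replicates allow, here and in every test below). This difference was 39.1 per Mb without X and 44.0 per Mb without replicate 1.

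The gap between shorter and longer genes lay mostly in the longest genes and not at the 50 kb limit. Distal introns of genes of 45 to 50 kb, just inside the rule, held 92.7 summits per Mb with a median signal value of 153.4, and those of genes of 50 to 55 kb, just outside it, held 89.5 per Mb with a median of 145.4. Among shorter genes the density was 46.7 per Mb (34.4 to 61.9) for spans under 5 kb, between 113.0 and 126.6 per Mb in the 3 bins from 10 to 25 kb, and 88.1 per Mb (79.2 to 97.8) from 40 to 50 kb. Among longer genes it was 94.0 per Mb from 50 to 60 kb, 89.1 from 60 to 80 kb, 82.6 from 80 to 120 kb and 27.4 per Mb (24.1 to 31.1) from 120 kb up. The 56 genes of 120 kb or more, the longest of 1966 kb, supplied 42.5% of the longer genes' distal intron sequence. Of these 56, 32 held a distal intron summit. The same contrast held in each replicate alone, with 116.8, 118.8 and 122.1 entries per Mb in genes of 10 to 25 kb, and 29.3, 23.8 and 24.8 per Mb in genes of 120 kb or more. All densities count every base, with no mask for repeats, assembly gaps or sequence where reads cannot be placed. The part of such sequence in the gap was not tested.

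**Figure D1:**
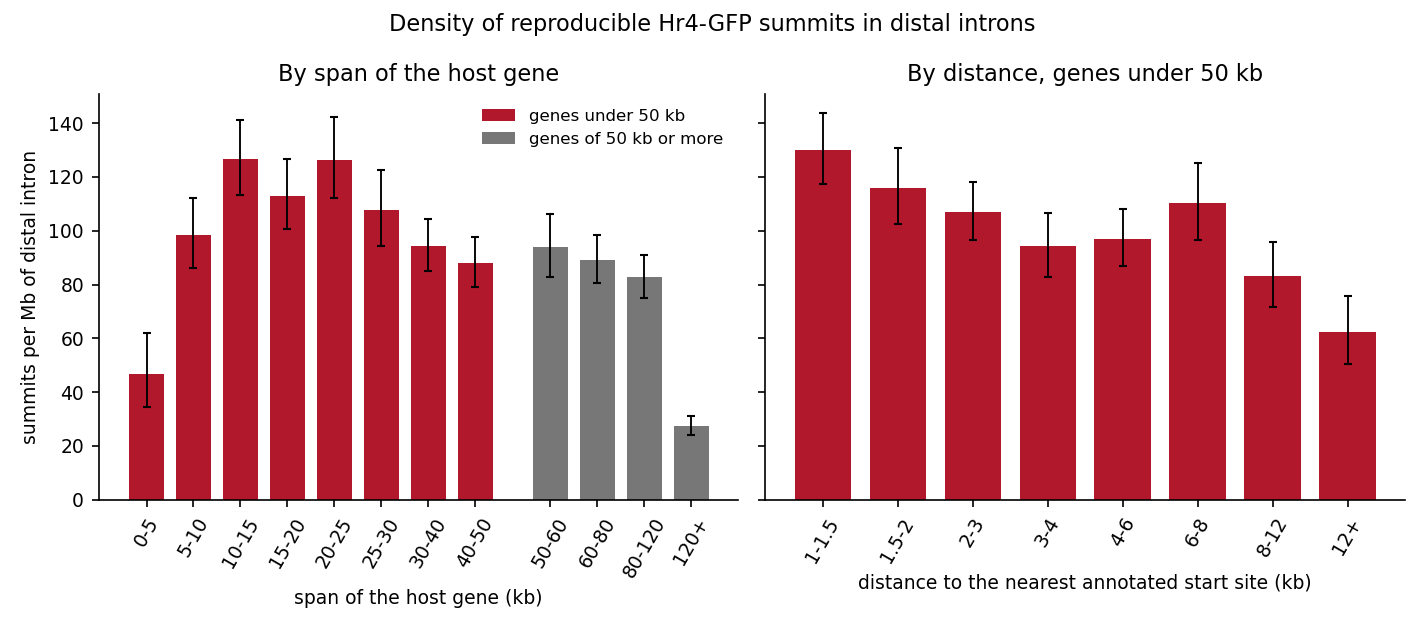
Reproducible summits per Mb of distal intron sequence, by span of the host gene (left, kb) and by distance to the nearest annotated start site (right, kb). Red bars are genes under 50 kb, grey bars longer genes, and error bars are exact Poisson 95% intervals: density was 126.6 per Mb at 10 to 15 kb and 27.4 per Mb at 120 kb or more, and it was 130.1 per Mb at 1 to 1.5 kb from a start site and 62.2 per Mb beyond 12 kb.

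Within the shorter genes, density was highest close to start sites. It was 130.1 per Mb (117.4 to 143.8) at 1 to 1.5 kb from the nearest start site, stayed between 94.2 and 116.0 per Mb from there to 8 kb, was 83.0 per Mb from 8 to 12 kb and 62.2 per Mb (50.5 to 75.9) beyond 12 kb. In the replicates' own lists the values were 109.0, 127.4 and 134.2 per Mb for the nearest of these bins, and 68.6, 56.5 and 57.8 per Mb for the farthest. The 1 kb limit was no step in density: summits in the 250 bp just inside it reached 132.1 per Mb with a median signal value of 170.2, and sites in the 250 bp just outside it that met every other condition reached 136.0 per Mb with a median of 201.6. The median summit lay 3111 bp from the nearest start site, 3973 bp from a start site of its own host gene, and 1646 bp from the nearest exon of that gene.

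Intron 1 was the densest intron. It held 950 of the 2140 summits (44.4%) at 139.2 per Mb (130.4 to 148.3), intron 2 held 111.2 per Mb (102.2 to 120.7), and intron 3 and later ones 69.2 per Mb (63.9 to 74.9). In each replicate's own list, intron 1 had 133.4, 135.6 and 138.0 entries per Mb, and later introns had 84.3, 82.6 and 85.2 per Mb, so the values did not overlap. Introns under 1 kb were nearly empty, with 52 summits at 17.4 per Mb, while introns of 2.5 to 20 kb held between 123.0 and 131.9 per Mb.

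Intron order and intron length were related, and setting them side by side shows where order made a difference. For introns under 2.5 kb, intron 1 held 118.9 per Mb (94.1 to 148.2) and later introns 35.4 per Mb (30.2 to 41.1). From 2.5 to 5 kb the 2 values were 139.0 per Mb (117.2 to 163.6) in intron 1 and 119.3 per Mb (106.0 to 133.7) in later introns, and these intervals overlap. From 5 to 10 kb they were 169.4 per Mb (151.0 to 189.4) and 108.3 per Mb (96.6 to 121.0), and above 10 kb 126.7 per Mb (114.9 to 139.5) and 104.3 per Mb (94.5 to 114.8). At equal distance from a start site intron 1 was also denser: 170.1 against 94.2 per Mb at 1 to 2 kb, 128.4 against 87.5 per Mb at 2 to 4 kb, and 123.6 against 77.97 per Mb beyond 4 kb. The summits did not differ in strength with intron order in the same way, since their median signal value was 177.9 in intron 1 and 173.5 in later introns.

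Arm X held 123.3 of these summits per Mb of its distal intron sequence (112.0 to 135.3) and arms 2L, 2R, 3L and 3R together 98.8 (94.1 to 103.6), whereas all reproducible summits stood at 66.3 and 65.2 per Mb. This difference did not hold in every replicate. Replicates 2 and 3 had 123.3 and 128.3 per Mb on X, against 95.8 and 97.8 per Mb on the 4 autosomal arms, but replicate 1 had 94.0 per Mb on X and 102.4 on those arms. Chromosome 4, the small and largely heterochromatic chromosome, held only 1 such summit in 0.1503 Mb, or 6.65 per Mb (0.168 to 37.1). Of the single arms, 3L had 113.6 per Mb, 2R 96.0, 3R 95.03 and 2L 91.5.

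Of the 2140 summits, 1686 lay in host genes that held 2 or more, though 454 of the 922 host genes held only 1. Whether this sharing exceeds what the length of the introns gives was not tested. The summits fell in 1207 introns, 464 of these introns held 2 or more, and the richest intron held 10. The distance to the next reproducible summit had a median of 1742.5 bp, against 2016 bp for summits in longer genes and 1922 bp for all reproducible summits, and 681 of the 2140 (31.8%) had another within 1 kb, against 26.8% and 29.9%. The spacing had 2 separate ranges. A group of 174 summits (8.13%) had a neighbour within 220 bp, only 9 had their nearest neighbour at 300 to 499 bp, and 239 had it at 500 to 749 bp. The smallest spacing in the whole list was 199 bp, and 8.78% of all reproducible summits also had a neighbour within 220 bp. Merging summits within 300 bp lowered the density to 97.5 per Mb.

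In strength these summits were typical of the list. Their signal values, the peak scores deposited by the authors, ran from 88.01 to 3028 with a median of 175.1 (quartiles 120.6 and 295.3), against a median of 176.8 for all other reproducible summits. Summits in introns of longer genes had a median of 157.1, distal summits in no protein-coding gene 153.7, and promoter summits 207.3. Of the 2140, 179 (8.36%) were among the strongest 10% of the list, against 5.03% of those in longer genes and 17.2% of promoter summits.

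The 10 strongest summits lay in 10 genes on 5 arms. The strongest of all, with a signal value of 3028 and rank 5 in the list, was in CG11050 (peak chr2L:6612451-6612915). Its signal values in the 3 replicates' own lists were 909.7, 1143 and 991.4, each above 99.9% of the entries of that list. The second strongest, 2413, was in intron 2 of Trl (peak chr3L:14759268-14759753), which encodes the GAGA factor, a chromatin protein that opens promoters and enhancers. Others lay in upSET (1611), a SET-domain chromatin protein, and in JIL-1 (1524), a kinase of histone H3. The one in neur (1619) is in a ubiquitin ligase that acts on Notch ligands, and the one in for (1576) in a cGMP-dependent protein kinase. The remaining 4 were in CG12769 (2102), CG32772 (1928), CG3726 (1793) and CG9837 (1764). All 10 ranked above the 99.6th percentile of every replicate's own list, and 5 of the 10 lay in intron 1.

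Nearly all of the 2140 were found in each replicate taken alone. Replicate 1 held 1988 of them (92.9%, Wilson 91.7% to 93.9%), beside 91.7% of all reproducible summits, and replicates 2 and 3 held 99.5% and 99.7%. All 3 replicates held 1972 (92.1%, 90.9% to 93.2%), beside 90.5% of all reproducible summits, so the share is close to that background. It was 97.0% (95.9% to 97.8%) for summits in longer genes and 97.0% (96.0% to 97.8%) for distal summits in no protein-coding gene. Promoter summits stood at 80.4%. The remaining 168 of the 2140 were found in exactly 2 replicates. The reproducible list was itself derived from these replicates, so the shares are no independent support for the summits. Per replicate, the share found was 1.54, 0.51 and 0.32 percentage points above that of all other reproducible summits in replicates 1, 2 and 3, a mean difference of 0.79 ± 0.66 points (SD, n = 3, exact sign-flip permutation test, p = 0.25, same sign in 3 of 3). It was 0.41 points without replicate 1, and 1.69 with a span limit of 100 kb in place of 50 kb. Against summits in longer genes the difference was −1.59 ± 2.57 points (p = 0.25 in the same exact test, n = 3). Its 3 values were −4.55, −0.0033 and −0.20, so it rests on replicate 1, and without that replicate the mean was −0.10 points.

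The summits missing from replicate 1 were weaker, nearer to start sites and more often on X. Of the 152, 66 (43.4%) were on X, against 19.0% of the 1988 found there, and their median signal value was 134.7, against 178.7. The 152 lay at a median of 2034.5 bp from the nearest start site, against 3228.5 bp for the 1988. For the 86 missing summits on 2L, 2R, 3L and 3R this median was 1928.5 bp. Replicate 1 held 83.0% of promoter summits, 97.4% of those in longer genes and 98.1% of distal summits in no protein-coding gene. On X replicate 1 held 377 of 443 (85.1%, 81.5% to 88.1%), and on 2L, 2R, 3L and 3R it held 1610 of 1696 (94.9%, 93.8% to 95.9%). The weakest 10% of the 2140 was found in replicate 1 at 87.9% and the strongest 10% at 98.6%. Without X, 94.0% of the summits were found in all 3 replicates. The parts of chromosome X, strength and distance from a start site in the lower share of replicate 1 were not tested beyond these values.

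**Figure D2:**
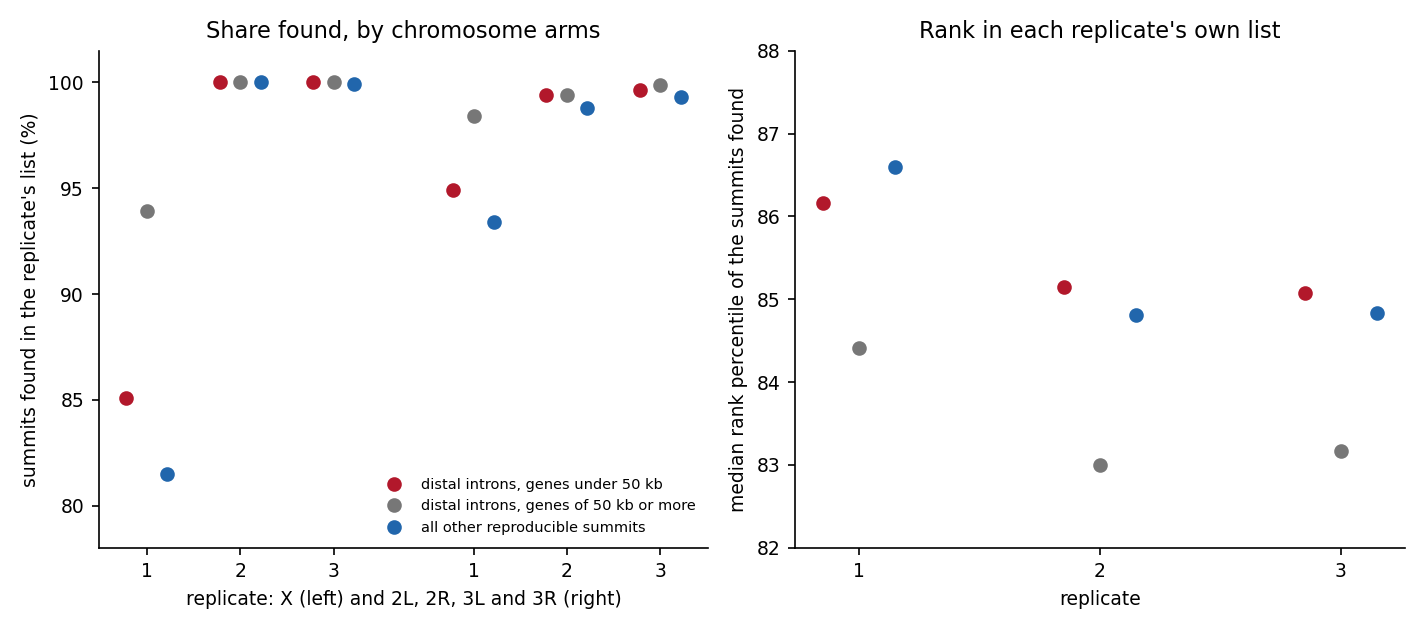
Left: percent of reproducible summits found in each replicate's list on X and on 2L, 2R, 3L and 3R. Right: median rank percentile of the summits found. Red is distal introns of genes under 50 kb, grey those of longer genes, blue all other reproducible summits: on X in replicate 1 the shares were 85.1%, 93.9% and 81.5%, and in every replicate the red median stood above the grey.

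Rank within each replicate set these summits above those in longer genes and level with the rest. The median rank percentile, where 100 is the strongest entry of a replicate's list, was 86.2, 85.2 and 85.1 in replicates 1, 2 and 3 for the shorter genes, against 84.4, 83.0 and 83.2 for longer genes. The difference averaged 1.94 ± 0.20 percentile points (SD, n = 3) and was positive in 3 of 3 replicates (exact sign-flip permutation test, p = 0.25). Without X it was 2.14. Against all other reproducible summits, whose medians were 86.6, 84.8 and 84.8, the difference of 0.05 ± 0.42 was smaller than the spread between replicates (p = 1, n = 3, exact test) and was negative in replicate 1. Across the summits found in both replicates of a pair, Spearman's rank correlation between percentiles was 0.80 for replicates 1 and 2 (1978 summits), 0.80 for 1 and 3 (1982) and 0.84 for 2 and 3 (2124), a description across sites within shared libraries.

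A few summits were ranked very differently by the replicates. The 3 with the widest range were in Pli, raw and Mef2, the last a transcription factor of muscle. The Pli summit had percentiles of 12.2, 85.4 and 90.3 in replicates 1 to 3, the raw summit 0.37, 66.2 and 78.3, and the Mef2 summit 12.2, 89.4 and 79.8. In all 3 cases replicate 1 was the low one, and none of the 3 is on X.

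Host genes were a minority of the genes that could have held such a summit. A gene was eligible if it spans under 50 kb and has any sequence that meets the rule. Of 6243 eligible genes, 922 (14.8%, 13.9% to 15.7%) held at least 1 summit, and this 14.8% is the background for the gene lists below. Hosts had far more eligible sequence, with a median of 8.51 kb, against 0.345 kb in the other eligible genes, and the share of hosts was 0%, 0.32%, 2.16%, 17.5% and 53.9% in 5 successive classes of eligible length, of about equal gene number. For that reason the lists are also given as summits per Mb of their own eligible sequence. Of the hosts, 454 held 1 summit, 183 held 2 and 285 held 3 or more.

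The gene with most summits was Mnt, a repressor that competes with Myc for their common partner Max. Its 15 summits, all on X within its 29.9 kb, had signal values from 97.9 to 759.0, with 6 in intron 1, 3 in intron 2, 1 in intron 4 and 5 in intron 5. Myc itself, which drives growth and ribosome synthesis, held 3, the strongest at 936.2. Next came tara, a transcriptional co-regulator, with 12 summits (90.1 to 715.5), 8 of them in intron 1. Raf, the kinase that links Ras to the MAP kinase cascade, held 10, all in intron 2, and 2 of these reached 1161 and 1238. The Arf exchange factor gene siz and the netrin receptor gene fra held 10 each, but none of theirs exceeded 336.0 and 283.8. In Mnt, tara, siz and fra these counts include summits within 220 bp of each other, such as those at chrX:3677966 and chrX:3678171 in Mnt. NetA, which encodes a ligand of fra, held 4, among them the 2 summits farthest from a start site of their host, at 46732 and 41314 bp. The next farthest, at 40953 bp, was in MESR3.

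Host genes were counted in 21 gene lists, which together hold 465 symbols, 446 of them matched. The Hippo, BMP and activin, JNK and EGF receptor lists had the 4 highest densities. The lists were drawn up with earlier results of these data known, their genes are few, and no test was made of any list. Their intervals count summits as independent, although several often lie in the same gene. The highest density was in the Hippo pathway, which restrains organ growth: 5 of 14 eligible genes were hosts, with 23 summits at 301.7 per Mb (191.3 to 452.7), against 102.3 per Mb over all eligible genes. In each replicate's own list the value was 275.5, 288.6 and 262.4 per Mb. The strongest summits were in kibra (1182), which held 9, and ex (941.8), which held 4, both encoding upstream activators of the pathway. The kinase gene wts held 5, the strongest at 530.7, and the polarity gene crb 4, the strongest at 531.7.

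In the BMP and activin pathway, 11 of 20 eligible genes were hosts, with 37 summits at 238.1 per Mb (167.6 to 328.2), and 231.7, 212.4 and 250.97 per Mb in the 3 replicates. The hosts included a ligand gene, receptor genes and Smad genes. The ligand gene dpp held 3 summits, the strongest at 1489, and its signal values in the 3 own lists were 507.4, 495.9 and 481.9. The receptor genes wit (1315), put (503.0) and babo (194.2) held 1 each. The glypican gene dlp held 8 and the BMP antagonist gene sog 7. Downstream, the Smad gene Mad held 3, and Dad, which encodes the inhibitory Smad of the pathway, held 5, the strongest at 968.5.

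For the EGF receptor pathway, 8 of 15 eligible genes were hosts, with 32 summits at 228.0 per Mb (155.9 to 321.9), and 213.7, 235.1 and 213.7 per Mb in the replicates. Besides Raf they included the neuregulin-like ligand gene vn (strongest summit 907.9), the receptor gene Egfr with 6 summits, the ligand-trafficking gene S with 6 and the repressor gene aop with 5. In the JNK pathway, 5 of 12 were hosts, with 18 summits at 233.2 per Mb (138.2 to 368.5), and the replicates gave 181.4, 246.1 and 259.1. The kinase gene msn held 9 of the 18 (strongest 530.2), the phosphatase gene puc 3 and kay, which encodes the Fos subunit of AP-1, 2 (strongest 534.9). In the Wnt pathway, 9 of 19 were hosts at 156.3 per Mb (101.1 to 230.7), led by the feedback inhibitor gene nkd (599.6) and the co-receptor gene arr (582.2), which held 6 each. In the Notch pathway, 5 of 15 were hosts at 128.3 per Mb (68.3 to 219.5). Besides neur they were N, which encodes the receptor (3 summits, strongest 635.9), the ligand gene Ser (4), the glycosyltransferase gene fng (3) and numb (1). In the Hedgehog pathway, 2 of 9 were hosts at 106.1 per Mb (28.9 to 271.7), boi with 3 summits and ptc with 1.

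Lists closer to the hormone had intermediate densities, with intervals that include the 102.3 per Mb of all eligible genes. Among ecdysone-responsive genes, 6 of 13 eligible were hosts, with 14 summits at 154.9 per Mb (84.7 to 259.9). The strongest was at ImpL2, which encodes a secreted protein that binds insulin-like peptides. That summit had a signal value of 1470, and of 461.8, 528.5 and 476.2 in the 3 own lists. E23, an ABC transporter gene of the ecdysone response, held 4 (strongest 695.6), Atg1, the autophagy kinase gene, 4, ImpE1 2, and Blimp-1 and crol 1 each. Among nuclear receptors, 5 of 11 were hosts at 118.1 per Mb (64.6 to 198.2). Eip78C held 6 summits (strongest 617.5), knrl 4, svp 2 (strongest 362.7), and Hr39 and Hr38 1 each. In the insulin and TOR pathway, 6 of 22 were hosts at 144.3 per Mb (82.5 to 234.4): ImpL2 and Myc, and also the insulin receptor gene InR with 5, foxo with 3, sgg with 2 and S6k with 1.

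The lists of metabolic, clock and matrix genes also had intervals that include the 102.3 per Mb of all eligible genes. Of 23 eligible genes of fat body storage and metabolism 5 were hosts, at 179.8 per Mb (72.3 to 370.4), led by the triglyceride lipase gene bmm with 3 (strongest 552.5) and the perilipin gene Lsd-2 (466.1). Of 13 clock genes 5 were hosts, at 145.7 per Mb (72.7 to 260.7), led by the repressor gene vri with 6 (strongest 494.8) and the kinase gene dco (315.2). Of 12 genes of basement membrane and matrix proteases 4 were hosts, at 146.8 per Mb (83.9 to 238.4), mostly through the integrin subunit genes mew with 9 (strongest 709.1) and if with 5 (257.5). Of 11 glycolysis genes only Tret1-1, a trehalose transporter gene, was a host, and its 1 summit gave the list 72.8 per Mb (1.84 to 405.4).

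Ion channels and imaginal disc selector genes had the lowest densities among the lists with a host. Ion channels had 5 hosts of 19 at 36.5 per Mb (14.7 to 75.1), with 31.2, 31.2 and 36.5 per Mb in the replicates. The sodium channel gene NaCP60E held 3 (strongest 711.9), and the other 4 hosts, among them the potassium channel gene KCNQ (155.3), held 1 each. Imaginal disc selector genes had 7 hosts of 26 at 50.04 per Mb (25.9 to 87.4), and 50.04, 50.04 and 45.9 per Mb in the replicates. Here the strongest summits were in the homeodomain genes inv (321.5, one of 3) and Awh (227.2, one of 2). Muscle structural proteins had 2 hosts of 18 at 65.3 per Mb (24.0 to 142.1), and septate junction and polarity genes 4 of 17 at 75.7 per Mb (36.3 to 139.3), with 6 summits in Nrg (strongest 305.0) and 1 in aPKC (285.1). No odorant or gustatory receptor gene (0 of 12) and no proteasome gene (0 of 7) was a host, but their eligible sequence came to only 3.68 kb and 0.896 kb.

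**Figure D3:**
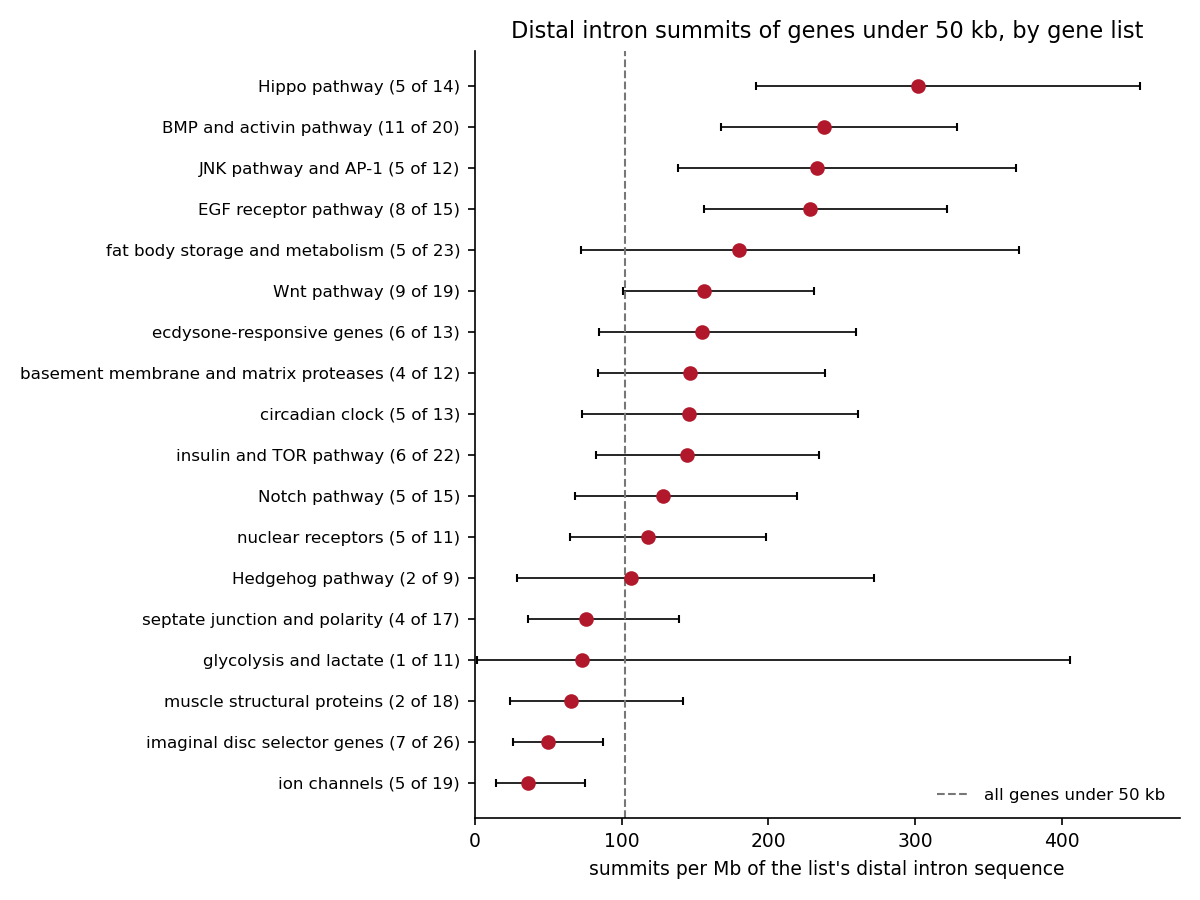
Summits per Mb of each gene list's eligible distal intron sequence, with exact Poisson 95% intervals, for 18 lists with at least 1 host. Numbers in brackets are hosts of eligible genes and the dashed line is the value over all eligible genes, 102.3 per Mb: the interval lies wholly above the line for the Hippo, BMP and activin, JNK and EGF receptor lists and wholly below it for imaginal disc selector genes and ion channels. The intervals count summits as independent, although several often lie in the same gene, so they are no test of a list.

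Most of these summits sat in a short AT-rich stretch between GC-richer shoulders. The summit base with 50 bp to either side had 31.2% ± 6.66 GC (SD over 2140 sites), the windows centred 250 bp to either side 45.1% ± 6.58, and distal intron sequence of genes under 50 kb as a whole 39.8%. The core was lower than the shoulders at 1952 of the 2140 (91.2%), against 91.5% of summits in longer genes, 78.8% of promoter summits and 86.9% of all reproducible summits. In each replicate's own list the core stood 13.3, 14.1 and 13.3 percentage points below the shoulders. The profile in 25-bp windows had its minimum of 29.96% at the summit, stood at 45.3% at 300 bp on both sides, and came back to 40.5% and 40.6% at 1000 bp. The contrast was the same away from exons: for the 1914 summits over 400 bp from an exon of the host, core and shoulder GC were 31.2% and 45.1%, and for the other 226 they were 31.2% and 45.9%.

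In composition these summits differed little from those in longer genes and more from promoters. In the reproducible list, core and shoulder GC were 31.2% and 45.1% in shorter genes, against 30.9% and 45.8% in longer genes, 30.6% and 47.0% in distal sequence outside protein-coding genes, and 32.7% and 42.3% at promoters, values given as a description. In the replicates' own lists, core GC averaged 31.6% ± 0.56 for entries that met the rule and 32.4% ± 0.39 for all other entries (SD, n = 3). The difference of −0.75 ± 0.17 percentage points had the same sign in 3 of 3 replicates (exact sign-flip permutation test, p = 0.25), but it was −0.20 in the stronger 50% of peaks and −0.47 with 100 bp to each side. Against entries in longer genes, at 31.5% ± 0.50, it was 0.14 ± 0.13 points, about as large as the spread and with the same sign in 3 of 3 replicates (exact test, p = 0.25). It was 0.067 without replicate 3 and 0.0042 with 100 bp to each side of the summit. Shoulder GC was 45.2% ± 0.26 for entries that met the rule and 45.8% ± 0.25 in longer genes, a difference of −0.61 ± 0.15 points with the same sign in 3 of 3 replicates (exact test, p = 0.25).

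Stronger summits had the deeper contrast. The strongest 10% had 30.7% GC in the core and 46.1% in the shoulders, and the core was the lower at 96.7% of them. The weakest 10% had 31.8% and 43.3%, with the core lower at 85.0%. Across the 2140 sites, Spearman's rank correlation between signal value and GC was −0.08 for the core and 0.13 for the shoulders, both weak and given as descriptions. The 174 sites with a neighbour within 220 bp had a flatter profile, with 33.7% in the core and 41.4% in the shoulders, against 31.0% and 45.5% at the other 1966.

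**Figure D4:**
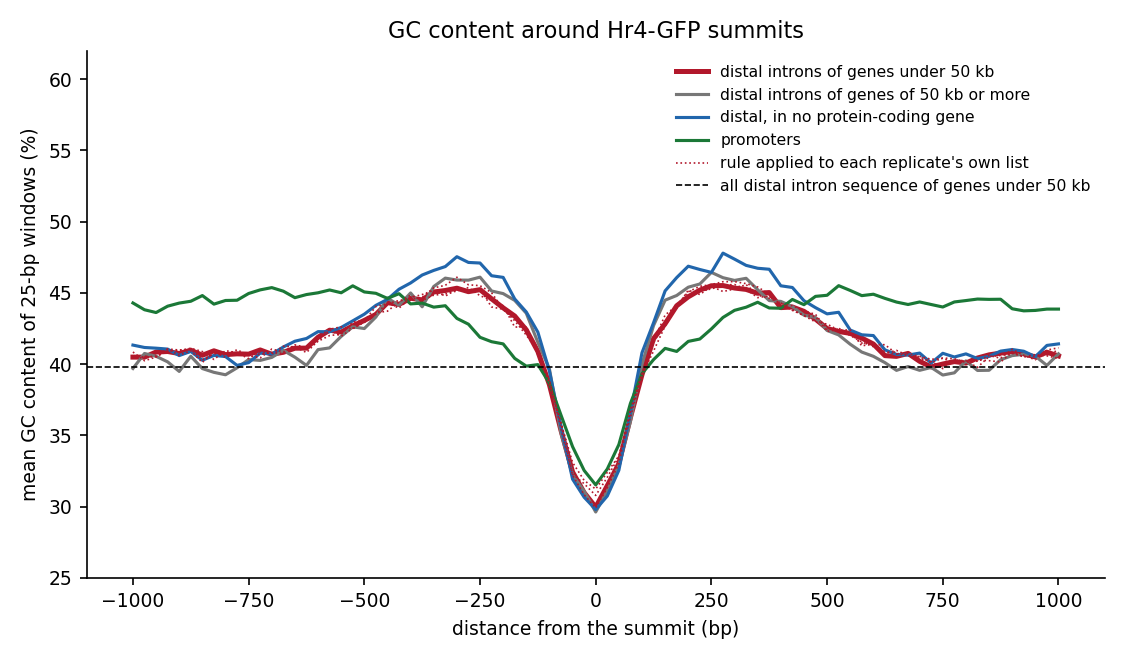
Mean GC content (%) of 25-bp windows against distance from the summit (bp), for distal intron summits of genes under 50 kb (thick red), the same rule in each replicate's own list (dotted red), longer genes (grey), distal summits in no protein-coding gene (blue) and promoters (green). The red line has its minimum of 29.96% at the summit and 45.3% at 300 bp to either side, and the dashed line is the 39.8% of all distal intron sequence of genes under 50 kb.

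The nuclear receptor hexamer was not more frequent at these summits than in the introns around them. Exact matches on either strand were searched within 50 bp of the summit, and windows of the same length were tiled over all sequence that meets the rule (186242 tiles). AGGTCA was present at 39 of the 2140 summits (1.82%, Wilson 1.34% to 2.48%), against 2.44% of the tiles and 1.80% of all reproducible summits. AAGGTCA, which contains it, was present at 14 (0.65%, 0.39% to 1.10%), against 0.97% of the tiles and 0.68% of all reproducible summits. TCAAGGTCA, which contains both, was present at 1, against 0.065% of the tiles. Matches to AGGTCA numbered 0.18 per kb within 50 bp of the summit, 0.23 at 100 to 300 bp and 0.28 at 800 to 1000 bp. The search required every letter and drew on no model of binding, so it counts these letters and no others. Core GC was 31.2%, against 39.8% over the tiled territory, and the part of base composition in these values was not tested.

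The homeodomain and GATA motifs were more frequent at the summits than in the tiles, and the GAGA element and the CA repeat less. TAATTA, the core that many homeodomain proteins recognise, was present at 249 summits (11.6%, 10.3% to 13.1%), against 8.07% of the tiles. Its density was 1.27 per kb at the core, 0.56 in the shoulders (100 to 300 bp) and 0.75 at 800 to 1000 bp. AGATAA, the site of GATA factors, was present at 213 (9.95%, 8.76% to 11.3%), against 6.21% of the tiles, with 1.07, 0.52 and 0.74 matches per kb in the same zones. GAGAG, the element bound by the GAGA factor, was present at 7.94% (6.87% to 9.17%), against 10.99% of the tiles, and its density was 1.01 per kb at the core, 2.74 in the shoulders and 1.86 far away. Over all reproducible summits the shares were 10.8% for TAATTA, 8.98% for AGATAA and 8.38% for GAGAG, each inside the interval given above. The CA repeat CACACACA was scarcest at the core, with 0.093, 0.88 and 0.79 matches per kb in the same zones. It was present at 0.70% of these summits and 0.90% of all reproducible summits. Since core GC was 31.2% and tiles follow the 39.8% of the territory, base composition moves with all 4 of these contrasts, and its part in them was not tested.

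Other motifs among the 26 searched differed in both directions, and the part of base composition in these values was not tested either. A run of 8 A was at 9.53% of summits and 7.04% of tiles, but its density was similar in all zones, with 2.84 matches per kb at the core, 2.39 in the shoulders and 2.72 far away. The TA repeat TATATATA had 0.31, 0.26 and 0.30 matches per kb in the same zones. The Sox site AACAATG was at 2.01% of summits and 2.77% of tiles. The TEAD site GGAATG, recognised by the partner of the Hippo effector, was at 2.52% of summits and 5.07% of tiles. The E-box CACGTG, the site of Myc and Mnt with Max, was at 0.51% and 1.21%. The whole reproducible list had similar shares: 9.52% for the run of A, 1.95% for AACAATG, 2.94% for GGAATG and 0.55% for CACGTG. The AP-1 site TGANTCA, with N any base, was at 3.36% (2.68% to 4.22%), against 2.48% of tiles, and the motif AACNNGTT of the epithelial factor grainyhead at 4.44% (3.65% to 5.40%), against 3.33%. GGTCACACT, the core of the motif of the promoter factor M1BP, was at 5 summits (0.23%, 0.10% to 0.55%), against 0.045% of tiles. Over all reproducible summits the shares were 2.71% for TGANTCA, 3.70% for AACNNGTT and 0.26% for GGTCACACT, each inside the interval given above. The 5 summits with GGTCACACT were in CG10348, BicD, Abl, sgg and S, chosen here after their values were seen.

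**Figure D5:**
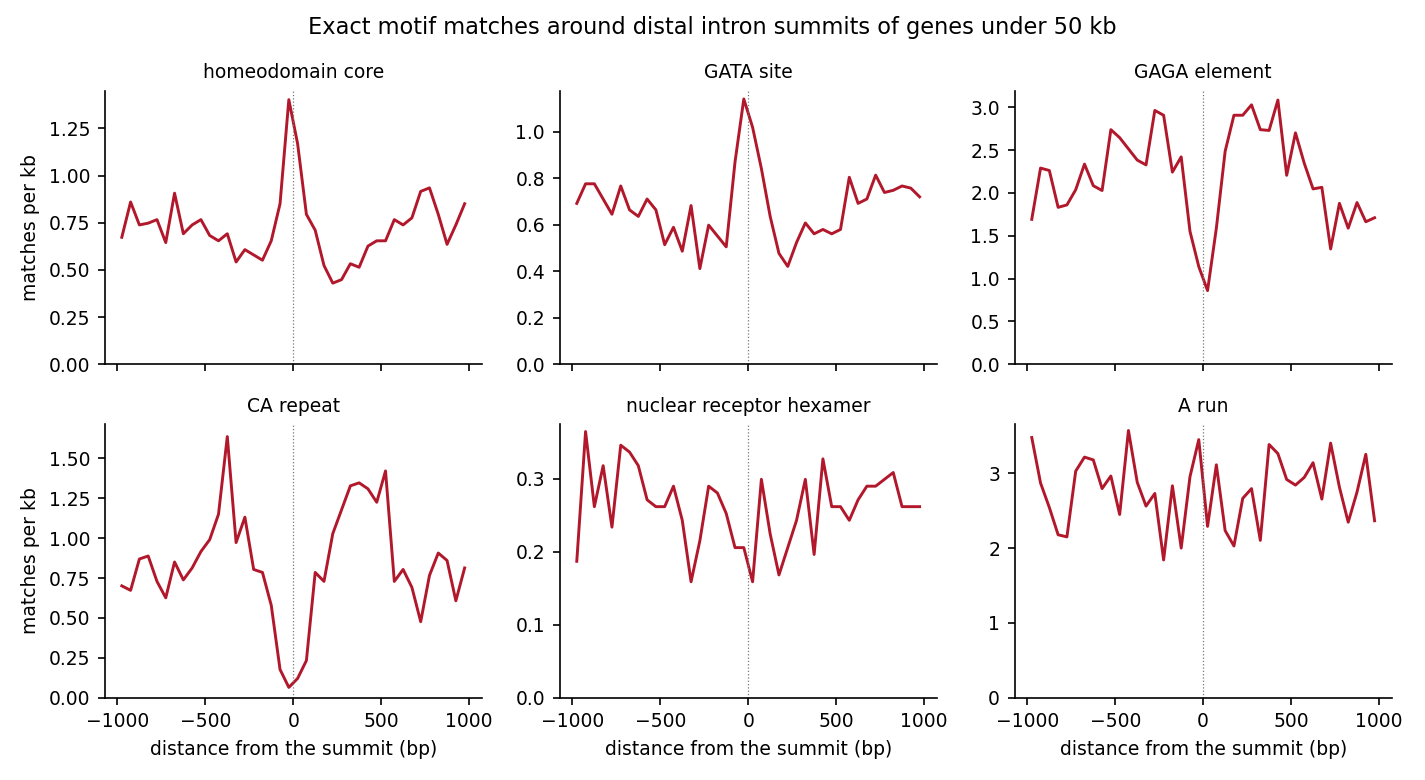
Exact matches per kb in 50-bp bins against distance from the summit (bp) for 6 motifs around the 2140 summits, each panel with its own axis from 0. The homeodomain core and the GATA site peak at the summit, the GAGA element and the CA repeat dip there, the run of A has no clear peak, and the nuclear receptor hexamer, at 0.18 per kb within 50 bp against 0.28 at 800 to 1000 bp, has no peak.

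Words of 6 letters restate the AT-rich core without a list of motifs, so they are no separate support for the motif results. Mean GC in 25-bp windows was 43.1% and 42.5% at 500 bp to the left and right, against 29.96% at the summit. The part of base composition in the word counts was not tested. Of 2080 words counted with their reverse complements, 758 were present at more cores than flanks (windows of the same length centred 500 bp away). All 36 words made only of A and T were among them, and the 20 with the largest difference were all of this kind. The leading word, AAATAT, was at 35.7% of cores, 14.6% of flanks and 19.2% of the tiles, and at 34.5% of the cores in longer genes. Among words with 2 or more letters G or C the largest difference was for TAAGCA, at 9.44% of cores, 4.77% of flanks and 5.76% of the tiles.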

How the data were processed

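Chromatin of whole white prepupae was sheared by sonication to 200 to 800 bp for each of 3 biological replicates, per the labels. The authors' text files beside the samples record 4 relaxed peak lists, made from alignments with a control (1 per replicate and 1 from all 3 together), from which analysis of the irreproducible discovery rate (IDR) gave the optimal list. Each relaxed list holds 30000 entries. Peak strength is the signal value that the authors deposited, and each list has its own scale. Aligner, peak caller, versions and IDR cut-off were not given in the sources used here, read depth is unknown, and control libraries were not analysed here. Of 8693 reproducible dm6 peaks, 6 off the main arms were left out. The dm3 lists were not used.

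Positions were placed on the RefSeq Release 6 sequence with the Ensembl release 115 annotation of that assembly, whose transposable element entries (5809) also count as start sites and exons. Where genes are nested, the host is the shortest. Percentiles rank each relaxed list by signal value. Composition per replicate used that replicate's 8693 highest entries, classified by the same rule. Differences over replicates used an exact two-sided sign-flip permutation test. The differences from longer genes in share found, density and shoulder GC were added after the data had been looked at. Shares have 95% Wilson intervals and densities 95% exact Poisson intervals, for counting error only. Scripts in Python 3.11.15 with numpy 2.4.6, pandas 2.3.3 and scipy 1.17.1 were first tested on simulated data.

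Named genes are the hosts of the 10 strongest summits, the 5 genes with most summits, the hosts of the 2 strongest summits in each list with 3 or more hosts, and the hosts of the 3 summits that differ most between replicates and of the 3 farthest from a start site of their host. Other hosts in a list are named for their role, after their values were seen. Of the 21 gene lists, 1 is not reported here. The summits, lists, motifs and tests were chosen with earlier results of these data known.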

Additional observations from a re-analysis of the deposited data

How the results depend on the processing

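Across 20 other settings, the 8 differences tested over replicates kept their sign in 67 of 74 comparisons. The rank difference from all other summits, 0.05 percentile points, changed sign with replicate summits within 100 bp (−0.044), at 2 kb from every start site (−0.20), with a span limit of 100 kb (−0.75) and in the stronger 50% of peaks (−0.22), and ran from −0.093 to 0.29 with a replicate left out. The share found, members minus other summits, changed sign with a span limit of 25 kb (−0.13 points) and reached 1.69 points with one of 100 kb. Core GC against all other entries kept its sign, from −0.88 to −0.20, the last in the stronger 50%. The cause of these changes was not tested. The rank difference from longer genes stayed between 1.47 and 2.14. The share found in all 3 replicates was 84.4% with matches within 100 bp, 93.9% at 2 kb from start sites, 90.0% and 93.6% with span limits of 25 and 100 kb, 94.8% in the stronger 50%, 94.0% without X, and 92.4% to 99.3% with a replicate left out. Density was 108.9 per Mb at 500 bp and 95.04 at 2 kb from start sites, 110.1 with a span limit of 25 kb, 50.8 in the stronger 50% (fewer peaks by construction), 98.0 without X and 97.5 with summits within 300 bp merged. The density difference from longer genes ran from 24.0 to 63.4 per Mb. Core minus shoulder GC was −14.0 points, −13.3 in the highest entries of replicates 1 and 3, and −14.5 after merging. All settings for the density and shoulder GC differences from longer genes and for the share found against longer genes were chosen after seeing the data, as were those that merged summits, set a distance from exons, used each replicate's entries for core minus shoulder GC, or left out X for rank against longer genes, for the share found in all replicates and for density. Read depth is unknown, so the limit it sets on the weaker sites cannot be given.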

Other observations

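Of the entries of the pooled relaxed list that met the positional rule, 2140 of 6906 (31.0%) were in the reproducible list, against 25.03% of those in distal introns of longer genes, 22.4% of distal entries in no protein-coding gene and 38.9% of promoter entries. The rule selected 2098, 2089 and 2142 of the highest entries of replicates 1, 2 and 3, and 86.0%, 90.4% and 89.8% of these lay within 250 bp of a reproducible summit of the same class. The 168 summits found in only 2 replicates had a median signal value of 133.0 and a median distance of 2099.5 bp from a start site, against 179.6 and 3226.5 bp for the 1972 found in all 3.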
